A study of Mus musculus with 2 samples.

Results

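Globin genes and Alas2 were followed through single cells sorted from mouse pancreas. The 5 genes, chosen by name, were the adult beta-globin genes Hbb-bs and Hbb-bt, the adult alpha-globin genes Hba-a1 and Hba-a2, and Alas2, among 14789 gene symbols in the count table. The animals were adult Tff2CreERT2; R26-tdTomato mice given tamoxifen, in which a tamoxifen-dependent Cre recombinase made where Tff2 is active switches on a red fluorescent protein (RFP). Cells negative for CD45 (a leukocyte surface protein) and TER119 (an erythroid surface antigen) and positive for EpCAM (an epithelial adhesion protein) and RFP were sorted into 10x Genomics libraries. The labels name 2 replicates of this 1 group, and no control group or unlabelled population was analysed here.

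The table held counts of unique molecular identifiers (UMIs), each of which stands for 1 captured RNA molecule, for 728 cells with 1004 to 53222 UMIs each. Barcodes end in 1 (667 cells, 2177260 UMIs) or in 2 (61 cells, 175748 UMIs), and no label ties an ending to a replicate. All values therefore come from 1 pooled sample, no test between samples was possible, and no p-value is given. Of the barcode sequences, 7 occurred under both endings, and none of these belonged to a globin-rich cell. Intervals in parentheses are exact 95% intervals, Poisson for counts and Clopper-Pearson for shares, and cover counting error only.

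Hemoglobin carries oxygen in red cells as a tetramer of paired alpha and beta chains, each of which holds a heme group. Erythroid cells make both chains in large amounts while they mature and lose their nucleus, and unpaired chains are harmful to them. Alas2 encodes the erythroid form of 5-aminolevulinate synthase, the first enzyme of heme synthesis, whereas its relative Alas1 serves other tissues. Blood remains in the vessels of a dissected organ, so red cells and RNA released from them can enter a tissue digest.

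In GENCODE M21 (GRCm38, the assembly behind the mm10 build named in the submitters' processing notes), Hbb-bt lies on chromosome 7 from 103812524 to 103813996 and Hbb-bs from 103826534 to 103828096, both on the minus strand. Hba-a1 lies on chromosome 11 from 32283511 to 32284465 and Hba-a2 from 32296489 to 32297298, both on the plus strand. Alas2 lies on chromosome X from 150547375 to 150570638 on the plus strand. The first annotated transcript of each globin gene has 3 exons, and that of Alas2 has 11.

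How close the copies are to each other limits how their UMIs can be divided. The Hba-a1 and Hba-a2 transcripts differ at 1 of 538 aligned bases, and their coding sequences at 1 of 426. The Hbb-bs and Hbb-bt coding sequences also differ at 1 of 441 bases, but their transcripts differ at 43 of 621 aligned bases and the last 100 bases share 66 of 92 aligned. The division between Hbb-bs and Hbb-bt thus rests on more sequence than that between Hba-a1 and Hba-a2, which is uncertain, since no source used here states how near-identical reads were split in counting. Sums of the alpha pair and of the beta pair do not depend on how reads were divided between copies, but they would on whether reads matching both copies were dropped, which was not tested.

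The stretches before the start sites are shown because the members stood high in the same few cells. They are from RefSeq on GRCm38.p6, and all 5 members matched an entry. The 30-base segments around the CCAAT box lie at chr7:103827992-103828021 (Hbb-bs), chr7:103813986-103814015 (Hbb-bt), chr11:32283567-32283596 (Hba-a1) and chr11:32296384-32296413 (Hba-a2), each written 5′ to 3′ on the strand of its gene. Capitals mark every match, on either strand, to the GATA-factor words AGATAA and AGATAG, the related words TGATAA and TGATAG, the word CACCC (bound by KLF factors), the word CCAAT (bound by NF-Y), or the TATA box word TATAAA. The Hbb-bs and Hba-a1 segments lie inside the longer GENCODE gene models, upstream of the RefSeq start sites, the Hbb-bt segment overlaps the first bases of its model, and the Hba-a2 segment lies before its gene.
Hbb-bs: ccaCACCCtggtaagggCCAATctgctcac
Hbb-bt: taaCACCCtggcATTGGCCAATctgctcag
Hba-a1: gagcaagcacaaaccagCCAATgagaactg
Hba-a2: gagcaagcacaaaccagCCAATgagaactg

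The beta pair held CACCC and CCAAT within the same 30 bases, and Hbb-bt held CCAAT on both strands there (the adjacent ATTGG). The alpha pair was identical over these bases, and over 247 of 247 aligned bases before the start, against 178 of 243 for the beta pair. Longer stretches of Hba-a2 (chr11:32296242-32296488) and Alas2 (chrX:150547167-150547374), which end where the annotated gene begins, are given for the members' other matches.
Hba-a2: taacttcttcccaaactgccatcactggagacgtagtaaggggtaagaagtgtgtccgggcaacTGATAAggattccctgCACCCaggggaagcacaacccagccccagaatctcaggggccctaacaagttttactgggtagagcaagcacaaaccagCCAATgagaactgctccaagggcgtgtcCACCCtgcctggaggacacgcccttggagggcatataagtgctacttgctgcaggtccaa
Alas2: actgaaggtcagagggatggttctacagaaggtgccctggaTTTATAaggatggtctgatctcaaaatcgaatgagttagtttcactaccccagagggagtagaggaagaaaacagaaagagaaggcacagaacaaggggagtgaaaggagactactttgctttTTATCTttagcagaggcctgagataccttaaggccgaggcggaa

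Within the 250 bases before the start, Hbb-bs, Hba-a1, Hba-a2 and Alas2 held a GATA word and Hbb-bt held none of the 4 words searched. All 5 held CACCC (in Alas2 on the minus strand and past the end of the printed stretch), and the 4 globin genes held CCAAT. Among 32851 RefSeq promoter windows of the same length, 26.5% held one of the 4 GATA words, 52.0% CACCC, 33.8% CCAAT, 12.4% TATAAA, and 16.9% both CACCC and CCAAT. A match is a run of letters, and binding was not measured here.

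Nearly all globin UMIs lay in 17 of the 728 cells. A cell was called globin-rich where the 4 globins gave over 50% of its UMIs. These 17 cells held 84008 of the 87328 globin UMIs (96.2%) and 126 of the 135 Alas2 UMIs (93.3%). The remaining cells were divided by enzyme and vessel transcripts into 270 acinar cells (10% or more of UMIs from the digestive enzyme genes Ctrb1, Try4, Cela1 and Prss2), 160 endothelial cells (5 or more UMIs of Kdr, Cdh5, Pecam1 and Egfl7) and 281 other cells. No globin-rich cell met the acinar rule, which is a share of all UMIs. In 16 of them the globins filled 93.1% or more, so these could not have met it. The endothelial rule, a count of UMIs, was met by 1 globin-rich cell. Outside the class, 2 cells that met both the acinar and the endothelial rule were counted as acinar.

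**Figure D1:**
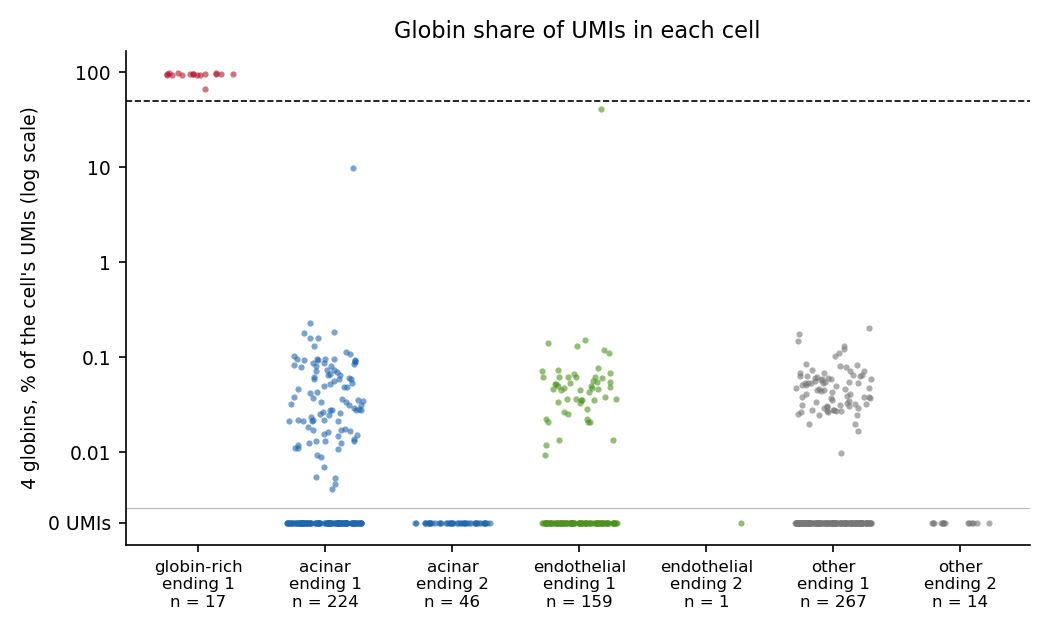
Each point is 1 cell, placed by class and barcode ending, with the share of its UMIs from the 4 globins on a log axis. Cells with 0 globin UMIs stand on the lowest line, and the dashed line is the 50% rule. The 17 globin-rich cells lie at the top, 2 cells stand between them and the rest, at 41.6% and 9.84%, and no cell under ending 2 has a globin UMI.

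The globin share fixed the class, so the values on either side of the rule are only described. The lowest globin-rich cell stood at 67.3% and the other 16 between 93.1% and 98.0%. Just under the rule was an endothelial cell at 41.6%, followed by an acinar cell at 9.84%. The highest of the remaining 709 cells stood at 0.227%. Apart from those 2 cells, no cell lay between 0.227% and 67.3%.

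All 17 globin-rich cells carried ending 1. They held 1680 to 9256 UMIs (median 5476), against a median of 2058 in the other 711 cells, yet only 38 to 1136 genes (median 93, against 740). Outside the globins they held 57 to 2085 UMIs (median 164). The cell at 67.3% was the one with 1136 genes and 2085 non-globin UMIs, and it was also the one that met the endothelial rule, with 20 UMIs of those 4 genes. The other 16 held 38 to 214 genes. Mitochondrial transcripts made up 3.31% to 33.6% of the non-globin UMIs of the globin-rich cells (median 10.3%, against 2.83% in the other cells), and ribosomal protein transcripts 2.65% to 41.8% (median 6.91%, against 14.0%).

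Few UMIs of the markers of other cell types were counted in these cells, apart from acinar and endothelial transcripts. Ptprc, which encodes CD45, had 0 UMIs, which allows up to 0.336 per 10000 UMIs but up to 5.65 per 10000 non-globin UMIs, above the 0.513 of the other cells. A difference in Ptprc was thus not detectable at this depth. Neutrophil markers had 0 UMIs, and the ductal, B cell, T or NK cell, macrophage, mesenchymal and platelet lists had 1 UMI each. In the other cells the ductal list stood at 22.3 per 10000 UMIs and the rest of these lists at 0.724 (platelet) to 6.57 (mesenchymal). With 5311 non-globin UMIs in the globin-rich cells, a difference in the lists other than ductal was not detectable at this depth. Of 40 endothelial UMIs, 34 were in the cell at 67.3%. Acinar markers (13 of 14 seen) had 648 UMIs, 13 to 69 per cell. Of the 6 measured erythroid markers that are no members (Slc4a1, Bpgm, Car2 and Gata1 among them), all were seen, with 104 UMIs in 14 of the 17 cells. Of these UMIs, Bpgm had 49, Slc4a1 2, and Car2 and Gata1 1 each. The listed Klf1 and Ahsp were not measured. Erythroid genes were thus present, some of them on only 1 or 2 UMIs. The part of the acinar and endothelial transcripts in the values below was not tested.

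Beta-globin transcripts were mostly from Hbb-bs. This gene had 408 to 3397 UMIs per globin-rich cell (median 1706), and 31531 in all. Hbb-bt, the second adult beta gene, had 12 to 808 (median 221), and 4705 in all. Every globin-rich cell held both, and in each of them Hbb-bs was the higher count.

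The share of Hbb-bt among beta UMIs differed between cells by far more than counting error. Pooled over the 17 cells it was 13.0% (12.6 to 13.3), but single cells ranged from 2.86% (1.48 to 4.94) to 19.2% (18.0 to 20.4). In 8 cells it lay between 2.86% and 7.70%, and in the other 9 between 11.0% and 19.2%. The interval lay above the pooled value in 7 cells, below it in 9 and across it in 1. Cells with more globin UMIs had the higher shares, with Pearson r = 0.78 and Spearman rho = 0.78 across the 17 cells. These cells share a library and the same counting, and the correlation is a description.

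Alpha-globin transcripts were divided almost evenly between the 2 copies. Hba-a1 had 606 to 2095 UMIs per globin-rich cell (median 1412) and Hba-a2 597 to 2453 (median 1449). The Hba-a1 share of alpha UMIs was 48.0% pooled (47.6 to 48.5) and ran from 46.1% to 50.7% over the cells. The interval spanned the pooled value in 13 of 17 cells, lay above it in 2 and below it in 2. Unlike the Hbb-bt share, it varied little, and the uncertain split of near-identical transcripts applies to it.

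Alpha UMIs outnumbered beta UMIs in 15 of the 17 cells. The pooled alpha share of globin UMIs was 56.9% (56.5 to 57.2), or 1.32 alpha UMIs per beta UMI. The lowest cell held 46.1% (44.8 to 47.4, 0.856 alpha per beta) and the highest 74.1% (71.9 to 76.2, 2.86 alpha per beta), with a median of 59.8% and an SD over cells of 6.87 percentage points. The median width on each side of a cell's interval was 1.34 points, so the spread between cells was larger than counting error. The interval lay above the pooled share in 9 cells, below it in 5 and across it in 3. UMIs were not scaled by transcript length, and differences in capture between alpha and beta transcripts were not tested.

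The ends of this range differed in depth and in the second beta gene. The cell with the highest alpha share, 74.1%, had the fewest UMIs of the class (1680), the fewest genes (38) and the lowest Hbb-bt share. It held 606 Hba-a1, 597 Hba-a2, 408 Hbb-bs and 12 Hbb-bt UMIs. The cell with the lowest alpha share held 1296 Hba-a1, 1353 Hba-a2, 2663 Hbb-bs and 430 Hbb-bt UMIs. Across the 17 cells the alpha share was lower where globin UMIs were more (Pearson r = -0.55, Spearman rho = -0.36), given as a description of cells of the same library.

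**Figure D2:**
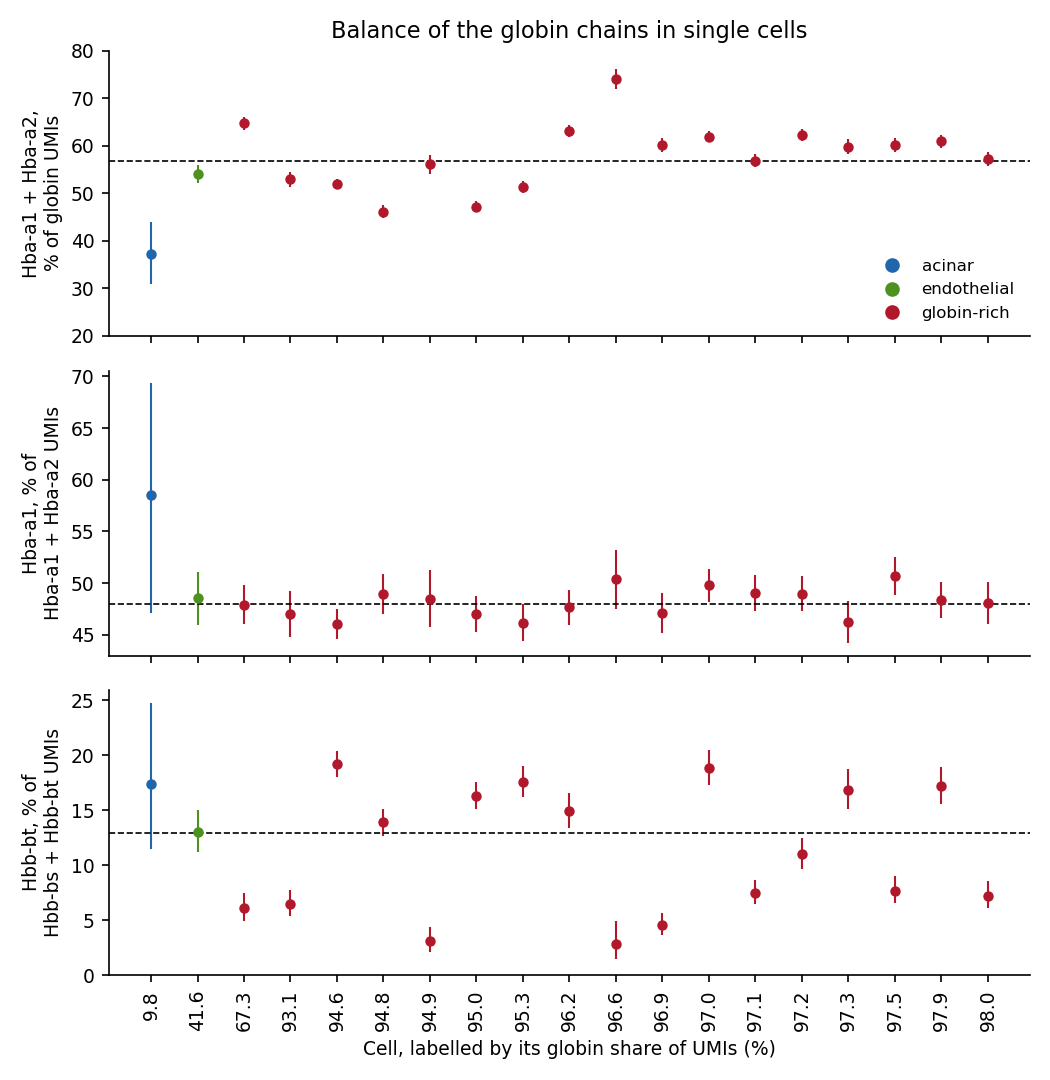
Points are the 17 globin-rich cells and the 2 cells below the rule, ordered by globin share of UMIs, with exact 95% intervals as bars and the pooled value of the globin-rich cells as a dashed line. The alpha share of globin UMIs (top) and the Hbb-bt share of beta UMIs (bottom) vary beyond the bars, whereas the Hba-a1 share of alpha UMIs (middle) stays between 46.1% and 50.7% in the globin-rich cells.

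Alas2 followed the globins cell by cell at a much lower count. It had 4 to 13 UMIs in 16 of the globin-rich cells and 0 in the cell of 1680 UMIs, with a median of 6. The pooled level was 14.1 per 10000 UMIs (11.8 to 16.8), or 15.0 per 10000 globin UMIs. The interval of every one of the 17 cells spanned that last value, so a difference in Alas2 per globin between cells was not detectable at this depth. Across these cells Alas2 and globin UMIs had Pearson r = 0.80 and Spearman rho = 0.83, a description of cells that also differed in total UMIs.

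Outside the globin-rich class Alas2 was seen only in the 2 cells between the groups. The endothelial cell at 41.6% held 8 Alas2 UMIs and the acinar cell at 9.84% held 1. The other 709 cells held 0, which allows up to 0.0133 per 10000 UMIs. At the ratio of the globin-rich cells, the 330 globin UMIs of these 709 cells would be accompanied by 0.495 Alas2 UMIs, so the 0 says nothing of whether Alas2 RNA accompanied them.

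The 2 cells between the groups carried globin transcripts beside those of their own class, and the endothelial one also several other erythroid transcripts. The endothelial cell had 6651 UMIs, 1813 genes and 2770 globin UMIs (1106 Hbb-bs, 166 Hbb-bt, 727 Hba-a1 and 771 Hba-a2). It also held 48 UMIs of endothelial markers, 9 of Bpgm, 11 of Mkrn1, 10 of Fam220a and 8 of Fech. Its alpha share of 54.1% (52.2 to 55.9), Hba-a1 share of 48.5% and Hbb-bt share of 13.1% all lay within the range of the globin-rich cells. The acinar cell had 2236 UMIs, 928 of them from acinar markers, and 220 globin UMIs (114 Hbb-bs, 24 Hbb-bt, 48 Hba-a1 and 34 Hba-a2). Its alpha share of 37.3% (30.9 to 44.0) lay below every globin-rich cell, and it held 1 UMI each of Mkrn1 and Fech. Among the remaining 709 cells, Mkrn1 was seen in 83 and Fech in 33, so these single UMIs do not set the acinar cell apart. Its 1 Alas2 UMI differs in this, since Alas2 was seen in 0 of those cells.

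Other erythroid genes were compared between the globin-rich and the other 711 cells on UMIs per 10000 non-globin UMIs, since the globins fill most of a globin-rich cell. This leaves 5311 UMIs in the globin-rich cells, 2085 of them in the cell at 67.3%, so many genes cannot be judged. A gene was called higher where the lower end of its interval reached 2-fold. Over all 7168 genes with 20 or more UMIs, 100 (1.4%) were called, and 1011 (14.1%) had a ratio of at least 2, most of them on 1 or 2 UMIs. The choice of total matters, since on all UMIs 25 genes had a ratio of at least 2. Without the cell at 67.3%, 76 genes (1.06%) were called and 390 (5.44%) had a ratio of at least 2. Here and in the ratios below, that cell was then counted among the other cells and not left out of the comparison. Genes called lower, with an upper end of the interval at or below 0.5, numbered 8. The lists below were written with earlier results of these data known, and a gene can pass the minimum through the globin-rich cells alone, so the counts are descriptions.

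Genes of red cell cytosol and maturation held the most called genes of the 6 lists. Of 26 measured, 22 had 20 or more UMIs and 11 were called higher, with 0 lower, against 1.4% of all genes, and the median ratio was 13.3 against 0 over all genes. Bpgm, the enzyme that makes 2,3-bisphosphoglycerate, which lowers the oxygen affinity of hemoglobin, had 49 UMIs in 10 cells (ratio 632, 398 to 1014, or 1041 without the cell at 67.3%).

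Genes of protein and organelle removal were part of that group. Ube2l6, a ubiquitin- and ISG15-conjugating enzyme, had 44 UMIs in 11 cells (ratio 246, 166 to 362), and Mkrn1, a ubiquitin ligase, 44 in 12 cells (177, 121 to 253). Ube2o, a ubiquitin-conjugating enzyme that remodels the proteome of reticulocytes, had 4 UMIs in 3 cells, below the minimum for a call. Bnip3l, which targets mitochondria for removal in maturing red cells, had 20 UMIs in 7 cells (37.0, 22.2 to 58.5). Ubb, which encodes ubiquitin, had 55 UMIs in 12 cells (9.81, 7.37 to 12.8). Without the cell at 67.3%, the ratio of Mkrn1 was 282 and that of Bnip3l 57.7.

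The remaining named genes of the group covered redox defence and less well defined roles. Gpx1, a glutathione peroxidase, had 36 UMIs in only 4 cells (25.9, 18.0 to 36.3), and Prdx2, a peroxiredoxin, 5 UMIs in 3 cells (8.12, 2.62 to 19.2). Fam220a had 25 UMIs in 11 cells (180, 108 to 292). Fam46c had 8 UMIs in 5 cells and Isg20, an exonuclease, 7 in 5 cells. Without the cell at 67.3%, the ratio of Gpx1 was 42.7 and that of Prdx2 13.4. All of these genes except Ube2o were called higher on non-globin UMIs. Set against all UMIs (89319 in globin-rich, 2263689 in other cells), Ubb and Prdx2 were not higher, with 2385 and 262 UMIs in the other cells. On that total Gpx1, with 591 UMIs in the other cells, was under 2-fold. The lower ends for Bnip3l, Isg20 and Fam46c also fell short of the 2-fold needed for a call.

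Of the heme genes, Fech stood out beside Alas2. Among 15 measured genes, 11 had 20 or more UMIs and 2 were called, Fech among them, or 1 without the cell at 67.3%. Fech, ferrochelatase, which inserts iron in the last step of heme synthesis, had 10 UMIs in 8 cells (ratio 101, 45.3 to 205, or 167 without the cell at 67.3%). Alas1, the form of other tissues, had 0 UMIs in the globin-rich cells and 32 elsewhere, and its interval reached up to a ratio of 52.0, so a difference was not detectable at this depth.

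Among the iron genes, the ferritin subunits, which store iron, had the most UMIs, though not the highest ratios. Ftl1, the light subunit, was seen in all 17 cells with 129 UMIs (15.9, 13.2 to 18.9), and Fth1, the heavy subunit, in 9 with 25 (3.24, 2.09 to 4.78). Of 7 iron genes with 20 or more UMIs, 3 were called higher, the third being Glrx5, a factor of iron-sulfur cluster assembly, on 3 UMIs (13.0, 2.64 to 39.2). Set against all UMIs (89319 in globin-rich, 2263689 in other cells), none of these 3 was higher. The other cells held 3455 Ftl1, 3289 Fth1 and 98 Glrx5 UMIs. Slc25a37, the mitochondrial iron importer mitoferrin, had 3 UMIs in 3 cells (79.8, 14.9 to 279) and too few in all for a call. Without the cell at 67.3%, the ratio of Fth1 was 4.90, that of Glrx5 21.5 and that of Slc25a37 131. Tfrc, the transferrin receptor that imports iron in erythroid precursors, had 0 UMIs, with 11 elsewhere.

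Membrane and skeleton genes had 14 UMIs in all in the globin-rich cells, and erythroid transcription factors 1. Slc4a1, the band 3 anion exchanger, had 2 UMIs. Of the membrane list, 9 of 19 genes were measured, 3 had 20 or more UMIs and 0 were called, or 1 without the cell at 67.3%. Of 10 measured erythroid transcription factors, Gata1 alone had a UMI in these cells, a single one. Of the other globins, Hbq1a, a theta-globin gene, had 4 UMIs in 4 globin-rich cells and 0 elsewhere, and Hbq1b had 1.

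**Figure D3:**
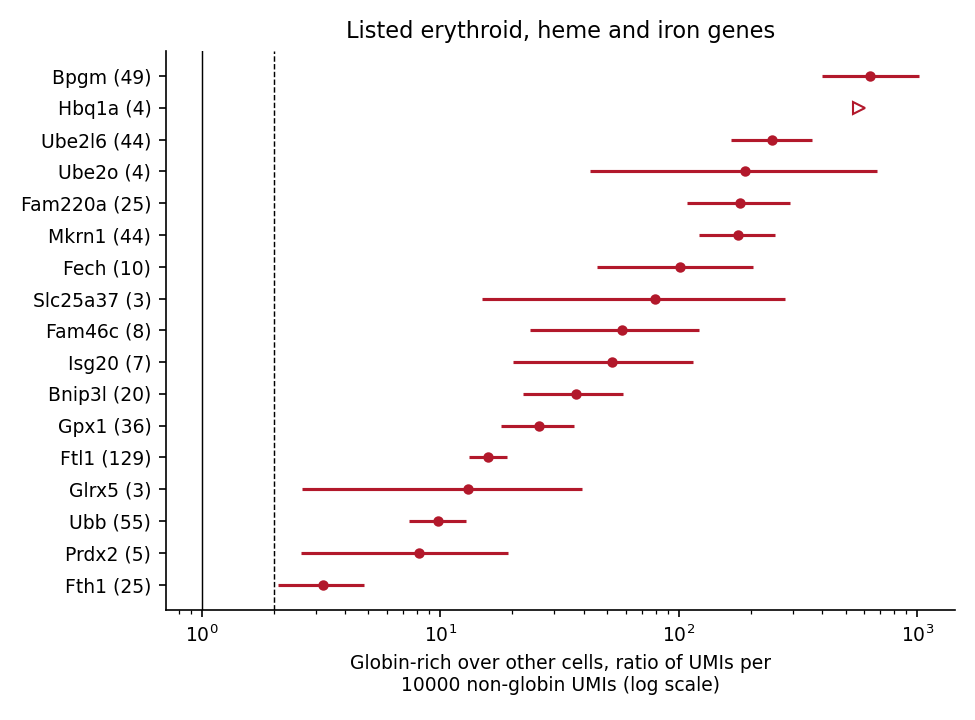
Ratio of UMIs per 10000 non-globin UMIs, globin-rich over all other cells, on a log axis with exact 95% intervals, for the listed genes reported here with 3 or more UMIs in the globin-rich cells (their UMIs in parentheses). The solid line is equality and the dashed line 2-fold, and the open triangle is a value computed against 3 counts for Hbq1a, which had 0 UMIs elsewhere. Among the genes drawn, Fth1 has the lowest ratio (3.24) and Bpgm the highest (632).

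Across all 728 cells, genes of the same red cell lists were among those most like the summed globins. Likeness was the Pearson correlation of log-transformed UMIs per 10000 over 11303 genes seen in 5 or more cells, a description across cells of unequal depth. It was 0.82 for Alas2 and 0.43 for Bpgm. Fam220a, Isca1, Fech, Mkrn1, Ube2l6 and Fam46c followed at 0.19 to 0.28, and AK157302 and Ube2c, each with 2 UMIs in the globin-rich cells, at 0.13 to 0.15. By ratio, the 10 leading genes included Bpgm, Ube2l6, Fam220a, Mkrn1, Isca1 (161, 80.4 to 305), Fech, Dcaf12 (72.7, 27.5 to 164), March2 (66.0, 39.0 to 106) and Fam46c (57.7, 23.8 to 121). Without the cell at 67.3%, the ratio of Bpgm was 1041, that of Mkrn1 282, that of Fech 167, that of Dcaf12 120 and that of Fam46c 95.1. Isca1 encodes an iron-sulfur cluster assembly protein and March2 a ubiquitin ligase.

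Outside the globin-rich class, globin UMIs under ending 1 were few in every class, and how the classes compared depended on the total they were set against. As deposited, acinar cells under ending 1 held 3.65 globin UMIs per 10000 UMIs, endothelial cells 75.1 and other cells 1.60. These values rested on the 2 cells between the groups, which held 57.9% of the acinar and 97.8% of the endothelial globin UMIs. Without them, the level was 1.54 (1.31 to 1.80) in 223 acinar cells, 1.70 (1.31 to 2.18) in 158 endothelial cells and 1.60 (1.31 to 1.93) in 267 other cells. The ratio of acinar to endothelial was 0.906 (0.673 to 1.23), of acinar to other 0.965 (0.751 to 1.24) and of endothelial to other 1.07 (0.768 to 1.47), so on all UMIs no difference was detectable beyond counting error. Acinar cells are filled with enzyme transcripts, and without the 4 acinar rule genes in the total the level was 2.20 (1.88 to 2.57) in acinar, 1.72 (1.32 to 2.20) in endothelial and 1.61 (1.32 to 1.94) in other cells. On this total, added after seeing the data, the ratio of acinar to other was 1.37 (1.07 to 1.77) and of acinar to endothelial 1.28 (0.954 to 1.75). Per cell, acinar cells held 0.717 globin UMIs, endothelial cells 0.399 and other cells 0.401. The level per 10000 UMIs in the globin-rich cells was 5926 times that in these 648 cells together.

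Parts of the other cells gave similar values. Cells with 5 or more UMIs from 1 marker list, assigned to the list with most UMIs, held 1.73 globin UMIs per 10000 (1.07 to 2.65) for the ductal list (32 cells), 1.68 (1.13 to 2.42) for the B cell list (88 cells) and 1.13 (0.701 to 1.73) for the T or NK list (68 cells). They held 1.52 (0.656 to 2.99) for the macrophage list (20 cells) and 2.32 (1.27 to 3.90) for the mesenchymal list (18 cells). The 41 cells assigned to no list held 1.79 (0.978 to 3.001). All 6 intervals overlapped, and this division was made after the values were known.

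**Figure D4:**
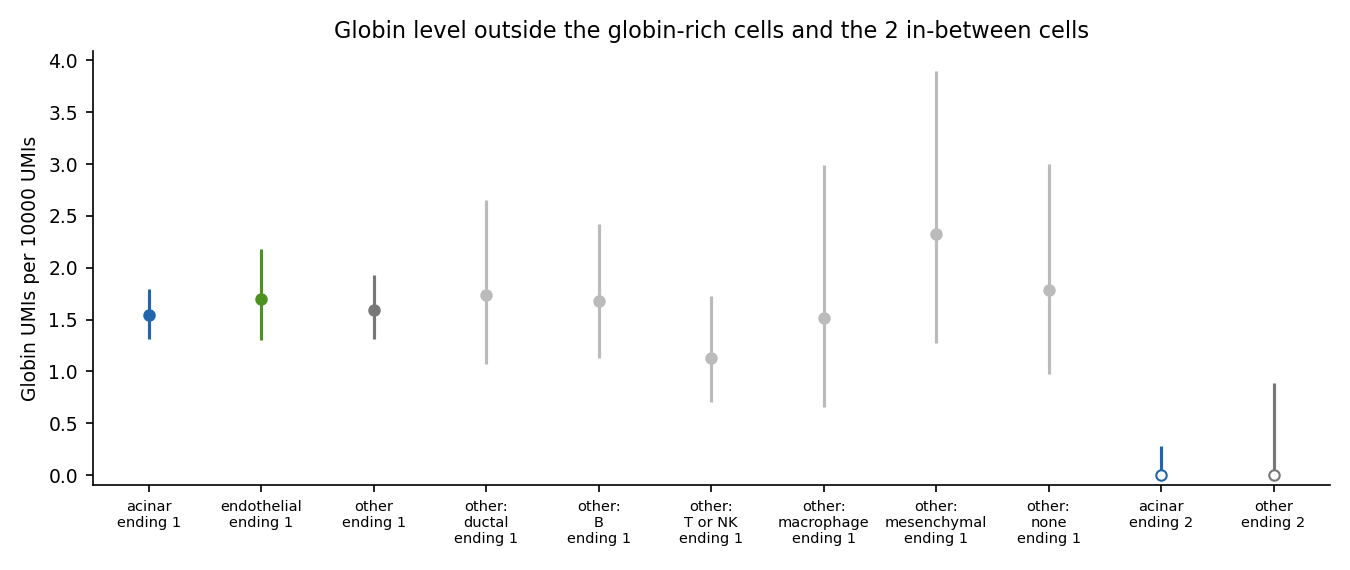
Summed globin UMIs per 10000 UMIs by class and barcode ending with exact 95% Poisson intervals, without the 17 globin-rich cells and the 2 cells at 41.6% and 9.84%. Light grey points split the other cells of ending 1 by marker list, and open points are ending 2, where the count was 0. The single endothelial cell of ending 2 is not drawn.

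Of the 648 cells, 412 held no globin UMI, 173 held 1, 45 held 2, and the highest held 7. A globin UMI was seen in 44.8% of acinar cells (38.2 to 51.6), 33.5% of endothelial cells (26.2 to 41.5) and 31.1% of other cells (25.6 to 37.0), at median depths of 2351, 1878 and 2116 UMIs. Thinned to 1000 UMIs per cell, which left out 0 cells, the shares were 20.6% (15.5 to 26.5), 13.3% (8.42 to 19.6) and 10.9% (7.40 to 15.2). At this matched depth the intervals of acinar and other cells were only just apart (15.5 against 15.2), whereas their levels on all UMIs did not differ detectably. The thinning was a single random draw, so another draw could bring an overlap. The source of these UMIs was not tested.

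The level fell with depth while the count per cell rose. The 324 cells at or below the median depth held 0.343 globin UMIs per cell, 2.29 per 10000 (1.88 to 2.75). The 324 deeper cells held 0.676 per cell, 1.37 per 10000 (1.20 to 1.57), a ratio of levels of 0.601 (0.476 to 0.762). Median depths were 1486 and 3198.5 UMIs.

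Under ending 2 no member had a UMI in any of the 61 cells. For the 4 globins this allows up to 0.171 per 10000 UMIs over all 61 cells, 0.227 in the 46 acinar cells and 0.723 in the 14 other cells. The single endothelial cell (1970 UMIs) allows 15.2 and says little. Without the 2 cells between the groups, the level under ending 1 was 9.30 times the limit over all cells, 6.79 times in acinar and 2.21 times in other cells. These ratios leave out counting error under ending 1. In the same order, the exact intervals reached up to 0.210, 0.279 and 0.889 under ending 2. Under ending 1 they began at 1.42, 1.31 and 1.31. For Alas2 the limit of 0.171 per 10000 is the same, and Alas2 was 0 in the 648 cells of ending 1 too. Thus the ending without globin-rich cells was also the one without globin UMIs in its other cells.

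Enzyme transcripts did not follow the same pattern. In the 14 other cells of ending 2 the 4 acinar rule genes stood at 164 per 10000 UMIs (151 to 176), against 78.1 (76.0 to 80.3) in the 267 other cells of ending 1, although the 10% rule bounds both. In the globin-rich cells they stood at 39.6 (35.6 to 44.0) on all UMIs, most of which were globin there. Set against the 5311 non-globin UMIs, the 354 UMIs of these genes gave a higher level than in either set of other cells. The order thus depends on the total. Counted per cell, the globin-rich cells held 9 to 36 UMIs of these genes (median 22), the endothelial cells of ending 1 a median of 18 and the other cells of ending 1 a median of 16.

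The globin UMIs outside the globin-rich cells did not have the chain composition of the globin-rich cells. As deposited, the alpha share over all 711 cells was 51.4% (49.6 to 53.1), of which 90.1% of UMIs came from the 2 cells between the groups. The other 330 UMIs comprised 168 of Hbb-bs, 37 of Hbb-bt, 89 of Hba-a1 and 36 of Hba-a2, an alpha share of 37.9% (32.6 to 43.4). It was 37.5% (29.98 to 45.5) in acinar, 39.7% (27.6 to 52.8) in endothelial and 37.4% (28.2 to 47.3) in other cells. The classes did not differ detectably from each other, and all 3 intervals lay below the 56.9% of the pooled globin-rich cells. The lowest single globin-rich cell, at 46.1%, also lay above the interval over the 330 UMIs and that of acinar cells. It lay within the intervals of endothelial and other cells.

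The alpha copies differed in the same direction in each class. Hba-a1 made up 71.2% of alpha UMIs (62.4 to 78.9) over the 709 cells, with 66.7% (53.3 to 78.3) in acinar, 84.0% (63.9 to 95.5) in endothelial and 70.0% (53.5 to 83.4) in other cells, all above the 48.0% of the globin-rich cells. The Hbb-bt share of beta UMIs was 18.0% (13.0 to 24.0) over the 709 cells, at the edge of the 13.0% of the globin-rich cells, which lay within the intervals of acinar (16%, 9.43 to 24.7) and other cells (14.9%, 7.40 to 25.7) and below that of endothelial cells (28.9%, 15.4 to 45.9). The Hba-a1 share carries the uncertain split between near-identical copies.

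**Figure D5:**
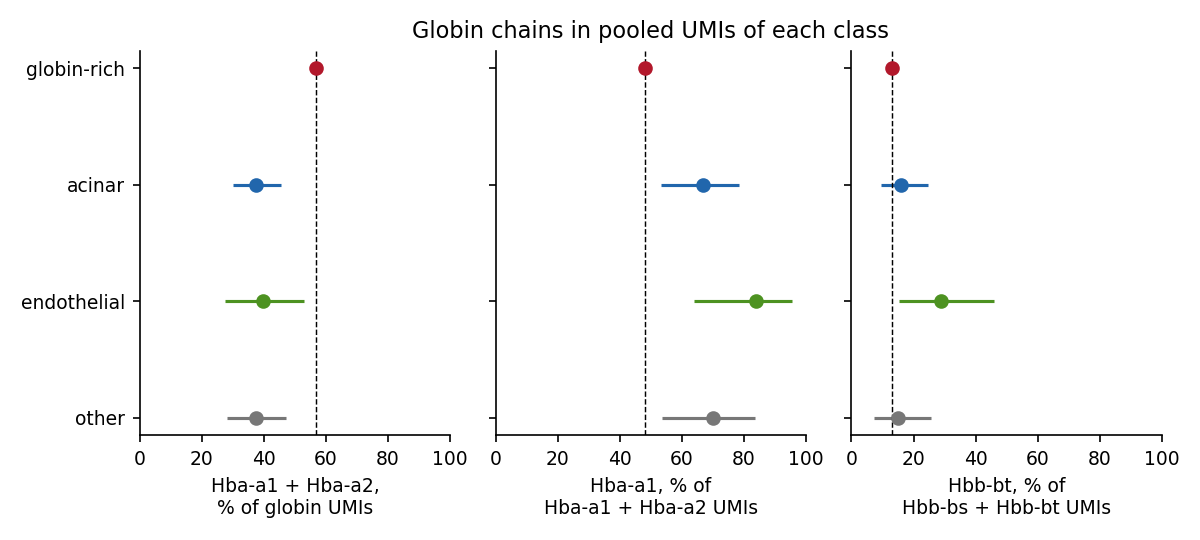
Pooled chain shares with exact 95% intervals in the globin-rich cells and in acinar, endothelial and other cells without the 2 cells at 41.6% and 9.84%. Dashed lines mark the globin-rich value. The 3 other classes lie below it for the alpha share of globin UMIs and above it for the Hba-a1 share of alpha UMIs.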

How the data were processed

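The authors deposited 1 table of raw UMI counts per gene and cell (14793 rows, 728 cells). Cell Ranger and mm10 are named in the submitters' processing notes, and no source used here gives their versions, their roles or the filter on cells. Rows of the 4 repeated symbols were summed. Cells could not be tied to the 2 labelled replicates, so no test was run and endings are set side by side. Cells were classed as globin-rich first, then acinar, endothelial and other, and no doublet caller was run. Levels are summed UMIs per 10000. Limits for a count of 0 use 3 counts. Ratios between cell sets use totals without the 4 globins and exact conditional intervals. These were tried on simulated independent Poisson counts of genes with many UMIs. That does not check genes with few UMIs, or with UMIs grouped in few cells. Named genes are the members, listed genes with 3 or more UMIs in globin-rich cells, and the 10 leading genes by likeness and by ratio (3 or more globin-rich cells). Some genes that this rule names are not reported here, but stay in the counts. Older symbols were matched through RefSeq. Members, lists and rules were chosen with earlier results of these data known. Python 3.11.15, numpy 2.4.6, pandas 2.3.3, scipy 1.17.1 and Biopython 1.88 were used.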

Additional observations from a re-analysis of the deposited data

How the results depend on the processing

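Of 59 recomputed values, 38 stayed within the interval of the value they replace, or for the count of genes within 1.5 times, but 14 of these are identical to it because the setting left their UMIs as they were. With globin-rich defined at over 20% of UMIs, the class's globin share was 90.4%, and at over 80% it was 96.1%, with an alpha share of 56.4%. Weighting the 17 cells equally gave an alpha share of 58.1% and a Hbb-bt share of 11.3%. Per 10000 non-globin UMIs, Alas2 stood at 237. Without cells over 5% globin, the level over both endings was 1.37 in acinar and 1.69 in endothelial cells, and the alpha share outside the globin-rich class 37.9%. With those cells kept, that share was 40.0% as a mean over the few cells with 5 or more globin UMIs. Apart from the 2 cells over 5% globin, these held only 5 to 7 globin UMIs each. The acinar level was 3.65 under ending 1, and 4.67 without the 4 acinar genes in the total, on which the acinar level under ending 1, without cells over 5% globin, was 1.37 times that of other and 1.28 times that of endothelial cells, against 0.965 and 0.906. Under ending 2 the acinar, endothelial and other levels were 0. With 10 or more endothelial UMIs required, that class's level was 85.3. Genes at least 2-fold higher numbered 1011, against 25 on all UMIs, 390 in the cells over 80% globin and 100 by the lower end of the interval, a rule added after seeing the data. Ending 2 held no globin-rich cell and gave no value for that class. No replicate could be left out, and no paired analysis was possible because the labels give 1 group and tie no cell to a replicate. Depth limits most erythroid genes, with 5311 non-globin UMIs in the globin-rich cells.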
